A study of Mus musculus with 6 samples.

Results

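Of the 54532 genes in the deposited table, 10 were taken by name as the MHC class II and co-stimulation genes of these mouse macrophages. They are the class II chain genes H2-Aa, H2-Ab1 and H2-Eb1, the loading genes Cd74, H2-DMa and H2-DMb1, the activator gene Ciita, and the surface molecule genes Cd86, Cd40 and Cd83. All 10 names matched 1 row each. The series holds 6 RNA-seq libraries of primary macrophages of WT genotype, 3 labelled vehicle and 3 labelled rmMETRNL. Pretreatment lasted 6 h in both groups and was followed in both by 6 h with Candida albicans, a yeast that can infect mammals, so every sample had met the fungus. rmMETRNL is named in the labels for METRNL, a secreted protein also called meteorin-like. The labels give no mouse strain, age, sex, tissue of origin or dose. Nothing in them tells whether libraries of a group are separate animals or cultures, and the p-values measure only the spread between these libraries, which may be technical. Which columns of the table are rmMETRNL was read from a letter in their names, and each direction below depends on that reading.

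MHC class II molecules hold peptides from engulfed material at the surface of antigen-presenting cells, where CD4+ T cells read them. An alpha and a beta chain form in the endoplasmic reticulum around the invariant chain CD74, which blocks the peptide groove. In endolysosomes CD74 is cut down to a fragment, and H2-M (encoded by H2-DMa and H2-DMb1) helps to exchange that fragment for a peptide. CIITA, a coactivator that does not bind DNA itself, switches the class II genes on through factors assembled on a shared promoter module. Its own gene is induced by interferon-gamma in macrophages. T cells also need co-stimulation. CD86 binds CD28 and CTLA-4, CD40 receives CD40 ligand from T cells, and CD83 is an activation marker known to keep class II and CD86 at the cell surface by opposing the ubiquitin ligase MARCH1.

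Promoter sequence is shown first because it is where CIITA is known to act on class II genes. RefSeq promoter windows on GRCm38.p6, reaching from 250 bases before to 50 bases after the start, were at hand for 4 of the 10 genes, H2-Aa, H2-Eb1, H2-DMb1 and H2-DMa. The windows were searched on both strands for short runs of letters. The first was CTNGNAAC, as in the X box that the RFX complex binds, and the second GATTGG, as in the Y box that NF-Y binds. The printed parts end before the annotated transcripts or, for H2-DMb1, are kept to 30 bases, and the capitals mark the X and Y letters. The H2-DMb1 stretch ends before its Y letters, so that it shows the X letters alone. H2-Aa lies on the minus strand (chr17:34287829-34288073), H2-Eb1 (chr17:34305617-34305866) and H2-DMb1 (chr17:34153090-34153119) on the plus strand.
H2-Aa: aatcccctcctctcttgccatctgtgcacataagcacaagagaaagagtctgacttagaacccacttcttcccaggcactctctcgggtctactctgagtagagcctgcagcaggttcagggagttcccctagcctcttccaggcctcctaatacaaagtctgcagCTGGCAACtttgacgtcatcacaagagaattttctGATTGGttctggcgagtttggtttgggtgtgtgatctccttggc
H2-Eb1: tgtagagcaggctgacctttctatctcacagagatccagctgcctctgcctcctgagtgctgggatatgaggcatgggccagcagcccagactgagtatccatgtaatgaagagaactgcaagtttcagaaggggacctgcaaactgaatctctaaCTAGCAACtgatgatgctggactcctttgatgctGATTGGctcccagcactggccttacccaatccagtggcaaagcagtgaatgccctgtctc
H2-DMb1: ttacCTAGTAACtgatgatgctaggctgat

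In these 3 promoters the X letters began 84, 94 and 97 bases before the RefSeq start in H2-Aa, H2-Eb1 and H2-DMb1. The Y letters began 35, 34 and 35 bases after them. The H2-DMb1 stretch lies after the start of that gene in the deposited table (34153072), so its distance holds for the RefSeq start only. Both H2-DMa windows lacked the pair, but they lie upstream of the gene start in the deposited table, and the sequence at that start was not searched. Among 4 other class II genes with a window, H2-Ob held the pair, and H2-Oa, H2-DMb2 and H2-Eb2 did not. Of all 32851 mouse windows of this length, 13.2% held the X letters, 16.1% held the Y letters, and 0.0761% held an X followed by a Y on the same strand with 25 to 40 bases between their first bases. The letters and that spacing were set after these promoters had been seen, so the shares are a description and not a test. A match does not show that a factor was bound.

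The libraries held between 13235001 and 18145733 reads (or read pairs), recovered as whole numbers from the deposited FPKM values, which are fragments per kilobase of gene scaled to library size. Of 12 macrophage markers 11 averaged 1 FPKM or more, led by Lyz2 (vehicle 5460 ± 382 FPKM, rmMETRNL 5567 ± 139 FPKM) and Cd14 (2647 ± 62.0 and 2298 ± 53.4 FPKM), and the list summed to 11852 to 12352 FPKM per vehicle library and 11405 to 11907 FPKM per rmMETRNL library. Of the 11 tested, 3 lay wholly above the vehicle range with rmMETRNL (Adgre1, Csf1r and Mrc1) and 3 wholly below (Cd14, Cd68 and Mertk). Over all genes tested, 10.9% lay wholly above and 10.6% wholly below. Cd163, the marker below the level tested, also lay above (0.239 ± 0.00499 and 0.550 ± 0.0648 FPKM, from 17 to 49 reads). None of the 11 passed limma, and 1 passed voom, Cd14, a co-receptor for microbial products, which fell (adjusted p = 0.0468). The extraction text in the labels speaks of retinas, against the cell type given elsewhere in them. Of 8 retina markers 0 averaged 1 FPKM or more, and the list summed to 0.416 to 0.922 FPKM per library. The rmMETRNL library 3 stood somewhat apart, since the deviation of its genes correlated with the logarithm of gene length at 0.203, across genes, against -0.140 to 0.0534 in the other 5 libraries. That library was also the lowest of all 6 for H2-DMa and Cd40, so these genes are given below with and without it.

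Class II transcripts were present in every library, and their levels spanned a wide range. By the mean FPKM over the 6 libraries, a level per gene length, the order was Cd74 (219), H2-Ab1 (99.8), H2-Eb1 (99.1), H2-Aa (68.4), Cd83 (58.3), Cd86 (34.3), H2-DMb1 (10.8), Cd40 (6.81), H2-DMa (6.12) and Ciita (0.331). Cd74 ranked 224th of all 54532 genes by this mean and Ciita 12955th. The ranges over libraries overlapped for 3 pairs of neighbours in that order, H2-Ab1 and H2-Eb1, H2-Aa and Cd83, and Cd40 and H2-DMa. H2-Ab1 lay above H2-Eb1 in 3 of 6 libraries and Cd40 above H2-DMa in 4 of 6, while H2-Aa lay above Cd83 in all 6. The other neighbours had separate ranges, so that Cd74 stood 2.19-fold above H2-Ab1, and H2-DMa 18.5-fold above Ciita.

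**Figure D1:**
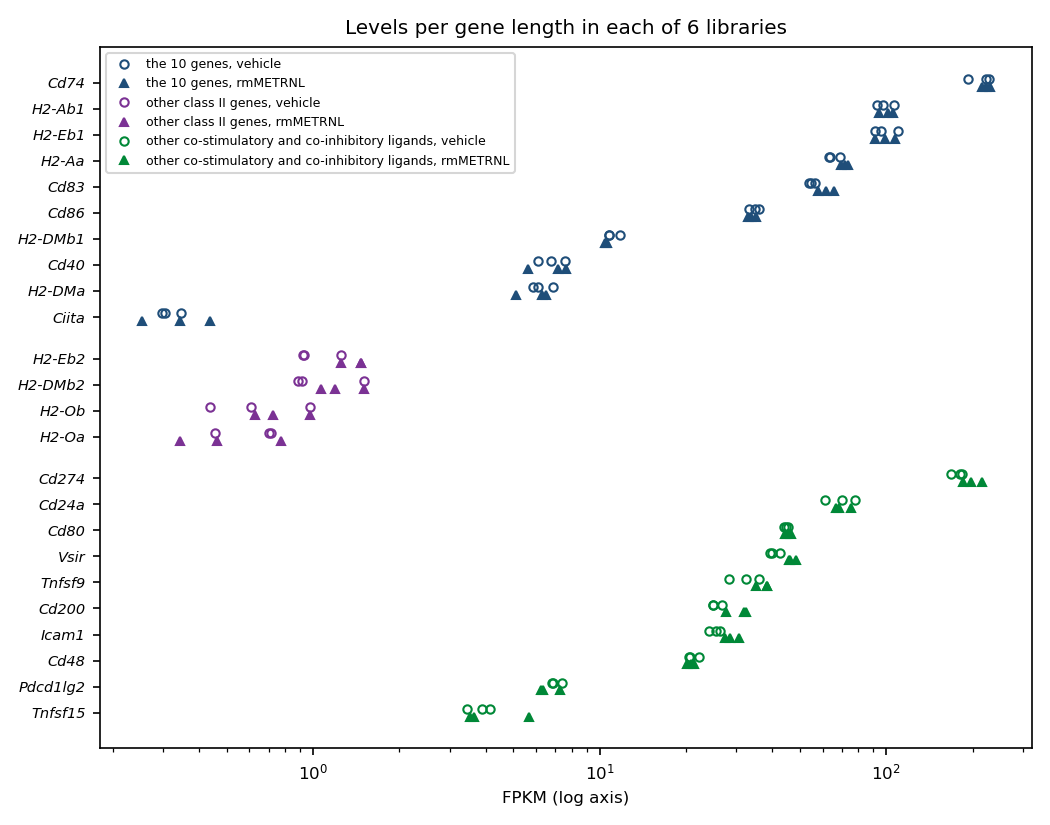
FPKM (level per gene length, log axis) in each of the 6 libraries for the 10 genes (blue), other class II genes (purple) and other co-stimulatory or co-inhibitory ligands (green), with open circles for vehicle and filled triangles for rmMETRNL. The class II chains and Cd74 lie between 63.2 and 229 FPKM, while Ciita reaches 0.438 FPKM at most.

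Ratios of FPKM within a library compare these genes per gene length. The ratios depend on the gene lengths in the deposited table (1874 bases for H2-Aa, 1637 for H2-Ab1 and 1184 for H2-Eb1). H2-Eb1 over H2-Ab1, the beta chains of I-E and I-A, ran from 0.934 to 1.03 across the 6 libraries. H2-Aa over H2-Ab1, the 2 chains of I-A, ran from 0.599 to 0.758, with 0.663 ± 0.0728 in vehicle and 0.713 ± 0.0504 in rmMETRNL libraries (here and below, mean ± SD over n = 3). Cd74 over H2-Ab1 was 2.18 ± 0.325 and 2.22 ± 0.0627, and ranged from 1.81 in vehicle library 2 to 2.40 in vehicle library 3. Each of these ratios overlapped between the groups.

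The other class II genes were low. H2-Ea-ps, the alpha chain gene of I-E under the name the table gives it, had 0 reads in 5 libraries and 3 reads in rmMETRNL library 3, and 3 reads is also what a count of 0 allows. In a number of mouse strains this gene is not expressed, and I-E is then absent from the cell surface although H2-Eb1 is transcribed. H2-Oa and H2-Ob, which encode an inhibitor of H2-M typical of B cells, had 0.623 ± 0.145 and 0.672 ± 0.274 FPKM in vehicle libraries and 0.527 ± 0.224 and 0.778 ± 0.182 FPKM in rmMETRNL libraries, from 7 to 17 and 25 to 48 reads.

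The comparison asked whether pretreatment with rmMETRNL left macrophages with other levels of these genes after they met Candida. No difference passed the test. Limma on log2(FPKM + 1), adjusted by Benjamini-Hochberg over the 9867 genes that averaged 1 FPKM or more, called 0 of the 9 tested genes of the group at an adjusted p of 0.05, and 0% of all genes tested. At an unadjusted p under 0.05 there were 2, H2-Aa and Cd83, both higher with rmMETRNL, where 14.7% of all genes tested reached that level in either direction and 7.54% did so upward. Limma voom on the recovered reads called 0 of the 9 as well, against 0.618% of all genes. At an unadjusted p under 0.05 voom had 1 of the 9 (Cd83), where 1537 of all 9867 genes tested did so. Ciita was below the level tested. The median log2 fold change was 0.01 over the 6 class II chain and loading genes and -0.01 over Cd86, Cd40 and Cd83, beside -0.01 over all genes tested. In 3 of the 9 genes the groups did not overlap, where 21.5% of all genes tested showed such a separation.

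**Figure D2:**
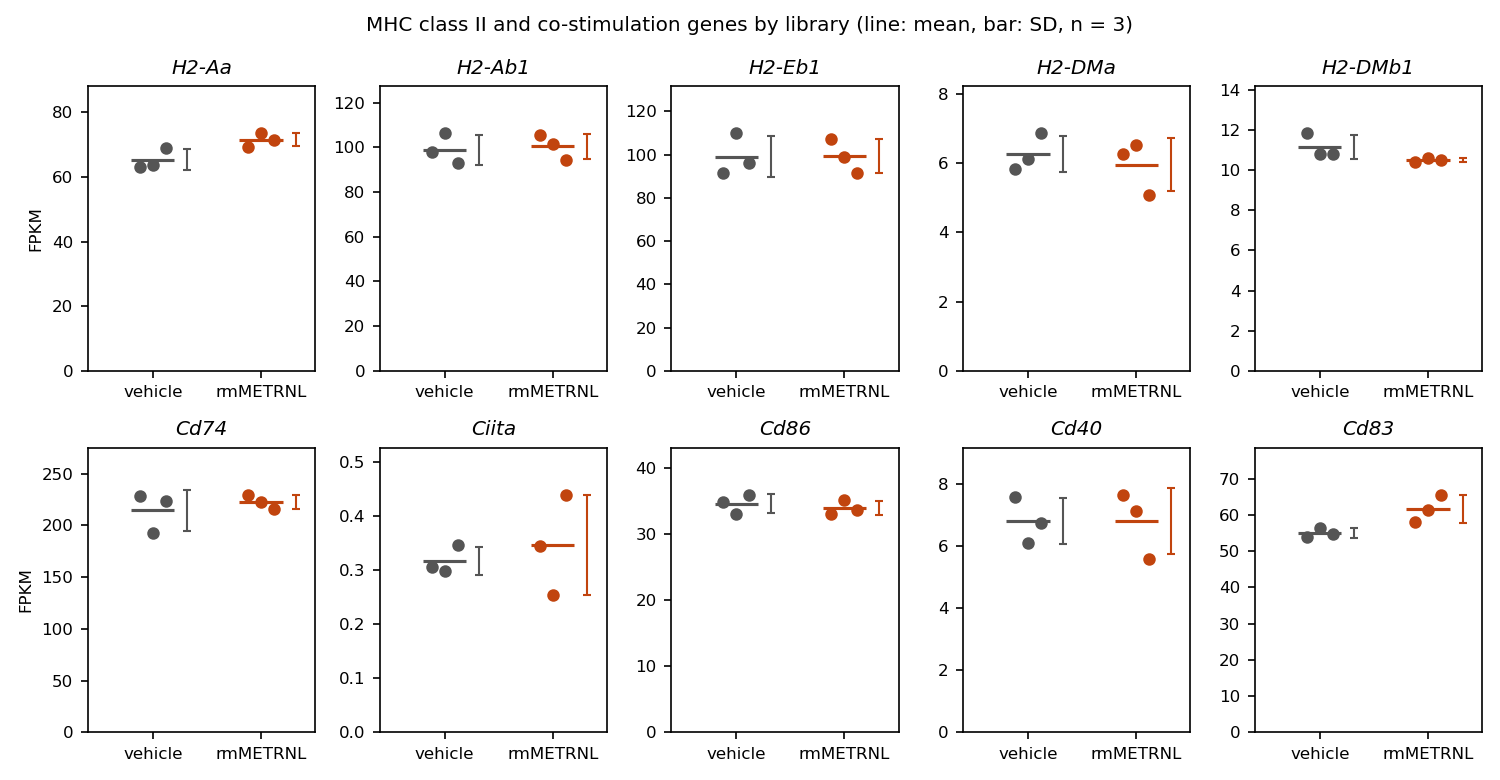
FPKM of each of the 10 genes on axes that start at 0, with 1 point per library, a line at the group mean and a bar for the SD (n = 3). Only H2-Aa and Cd83 have all rmMETRNL points above all vehicle points, only H2-DMb1 has them below, and the other 7 overlap.

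H2-Aa (ENSMUSG00000036594, chromosome 17, 34282744 to 34287827, minus strand, GRCm38) encodes the alpha chain of I-A. It stood at 63.2, 63.6 and 69.0 FPKM in vehicle libraries 1, 2 and 3 and at 69.4, 73.4 and 71.6 FPKM in rmMETRNL libraries 1, 2 and 3. The groups did not overlap, but vehicle library 3 came within 1 FPKM of rmMETRNL library 1. Its fold change was 1.09 (95% interval 1.01 to 1.19, unadjusted p = 0.0399, adjusted p = 0.324 in limma). In voom it was 1.09 with an interval of 0.996 to 1.19 (adjusted p = 0.341), so the interval reached 1 there. Every left-out library kept a positive log2 fold change, between 0.11 and 0.17.

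For neither beta chain gene was a difference detected. H2-Ab1 (ENSMUSG00000073421, chromosome 17, 34263209 to 34269418, plus strand), the partner of H2-Aa in I-A, stood at 97.8, 106 and 93.0 FPKM with vehicle and 105, 102 and 94.4 FPKM with rmMETRNL. This gave a fold change of 1.02, with an interval of 0.911 to 1.13 (adjusted p = 0.909 in limma). H2-Eb1 (ENSMUSG00000060586, chromosome 17, 34305877 to 34316199, plus strand), the beta chain of I-E, stood at 91.4, 109.8 and 95.9 FPKM with vehicle and 107, 99.0 and 91.4 FPKM with rmMETRNL. Here the fold change was 1.00, with an interval of 0.869 to 1.16 (adjusted p = 0.986). The groups overlapped for both genes, with vehicle library 2 the highest of all 6, and both intervals include the 1.09 of H2-Aa. In position the beta chain genes lie on either side of H2-Aa.

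Cd74 (ENSMUSG00000024610, chromosome 18, 60803848 to 60812646), the invariant chain gene and the most abundant of the 10, stood at 229, 192 and 223 FPKM with vehicle and 229, 223 and 216 FPKM with rmMETRNL. Vehicle library 2 was the lowest of the 6, and the other 5 lay close together. Between the groups it differed 1.04-fold, with an interval of 0.924 to 1.17 (adjusted p = 0.759 in limma). Without vehicle library 2 the log2 fold change went from 0.06 to -0.02.

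The H2-M genes were lower than each chain gene in all 6 libraries. H2-DMa (ENSMUSG00000037649, chromosome 17, 34135182 to 34139101) stood at 5.83, 6.11 and 6.86 FPKM with vehicle and 6.27, 6.52 and 5.10 FPKM with rmMETRNL, from 124 to 205 reads. The groups overlapped, and the fold change was 0.956 with an interval of 0.812 to 1.13 (adjusted p = 0.804 in limma). Without rmMETRNL library 3 the log2 fold change turned from -0.06 to 0.03. H2-DMa shares 10.4% of its exon bases with Brd2 on the other strand, and the sources used here do not say whether counting used the strand.

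H2-DMb1 (ENSMUSG00000079547, chromosome 17, 34153072 to 34160230) encodes the partner chain of H2-M. It stood at 11.8, 10.8 and 10.8 FPKM with vehicle and 10.4, 10.6 and 10.5 FPKM with rmMETRNL. All rmMETRNL values lay below all vehicle values, with a gap of less than 1 FPKM between the nearest libraries. A fold change of 0.948 resulted, with an interval of 0.867 to 1.04 (unadjusted p = 0.199, adjusted p = 0.555 in limma). Of its 31-base words 37.6% also occur in its near copy H2-DMb2, so its count is uncertain. H2-DMb2 itself had 1.11 ± 0.350 and 1.25 ± 0.226 FPKM.

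Ciita (ENSMUSG00000022504, chromosome 16, 10480059 to 10528418) had 0.305, 0.298 and 0.346 FPKM with vehicle and 0.344, 0.254 and 0.438 FPKM with rmMETRNL. These values rest on 44, 38 and 60 reads and on 51, 38 and 62 reads over a gene length of 9535 bases. The rmMETRNL libraries held both the lowest and the highest value. In the fit with no filter on low genes, the log2 fold change was 0.03 (SE 0.07, adjusted p = 0.901 in limma). At so low a level the 1 added to each FPKM shrinks this value and its SE, and the ratio of the mean FPKM was 1.09. The log2 difference, shrunk in the same way, turned to -0.02 without rmMETRNL library 3, which held the highest value. It was 0.08 without rmMETRNL library 2. The groups averaged 0.316 ± 0.0257 and 0.345 ± 0.0923 FPKM, so that no difference beyond the spread was detectable at this depth.

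Of the co-stimulation genes, Cd86 (ENSMUSG00000022901, chromosome 16, 36603869 to 36666081), which encodes a ligand of CD28 and CTLA-4, varied least. It stood at 34.9, 33.2 and 36.0 FPKM with vehicle and 33.1, 35.2 and 33.7 FPKM with rmMETRNL, a coefficient of variation of 3.47% over the 6 libraries. The groups overlapped, and the fold change was 0.981 with an interval of 0.903 to 1.07 (adjusted p = 0.842 in limma). Its relative Cd80, named here after its values were seen, had 44.7 ± 0.632 and 45.3 ± 1.05 FPKM, and the ratio of Cd80 to Cd86 ran from 1.24 to 1.38.

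Cd40 (ENSMUSG00000017652, chromosome 2, 165055627 to 165072948), the receptor for CD40 ligand, stood at 7.58, 6.11 and 6.76 FPKM with vehicle and 7.65, 7.15 and 5.60 FPKM with rmMETRNL. Both the highest and the lowest value came from rmMETRNL libraries. With a fold change of 0.995, its interval of 0.817 to 1.21 was the widest of the 9 in limma (adjusted p = 0.985). Without rmMETRNL library 3 the log2 fold change turned from -0.01 to 0.11, and without vehicle library 1 to 0.06.

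Cd83 (ENSMUSG00000015396, chromosome 13, 43784775 to 43803132), the activation marker, showed the largest difference of the 9. It stood at 53.9, 56.4 and 54.7 FPKM with vehicle and 57.9, 61.5 and 65.5 FPKM with rmMETRNL, from 1939 to 2563 reads. All 3 rmMETRNL libraries lay above all 3 vehicle libraries. Cd83 was 1.12-fold higher (95% interval 1.02 to 1.22, unadjusted p = 0.0245, adjusted p = 0.290 in limma). Voom gave 1.11 (interval 1.02 to 1.22, adjusted p = 0.233), so neither tool passed it over all genes. The log2 fold change of 0.16 was 0.12 without rmMETRNL library 3, its highest library, and 0.20 without rmMETRNL library 1, its lowest rmMETRNL library.

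**Figure D3:**
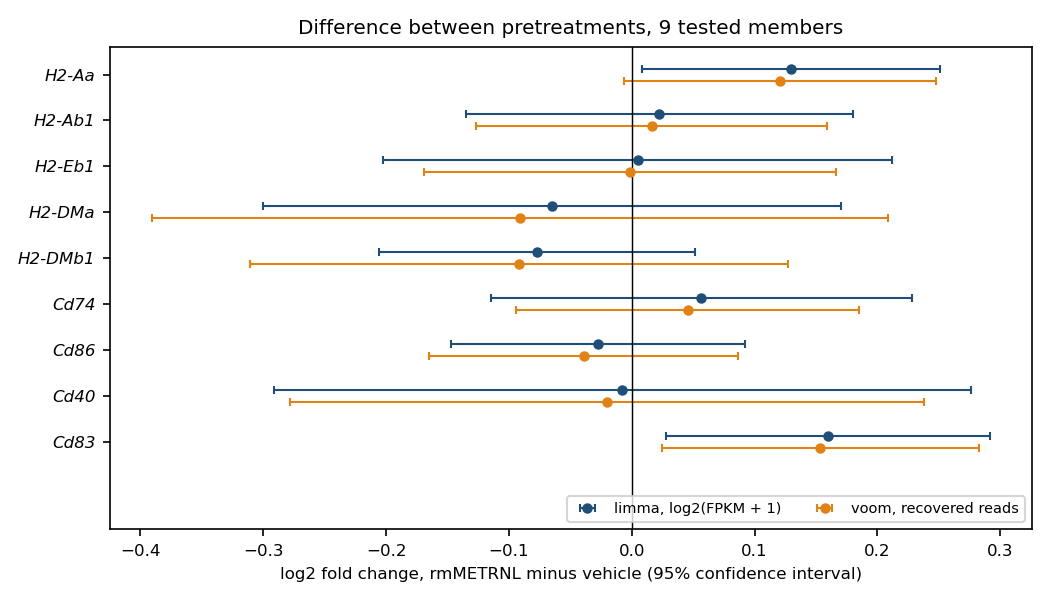
Log2 fold change of each of the 9 tested genes, rmMETRNL minus vehicle, with 95% confidence intervals that are not adjusted for the number of genes, from limma on log2(FPKM + 1) (blue) and from voom on the recovered reads (orange). The intervals of Cd83 lie above 0 in both, that of H2-Aa in limma only, and those of the other 7 genes include 0.

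Across libraries the 9 genes did not vary as 1 group. Of their 36 pairs 18 had a positive Pearson r over the 6 libraries, the median r was 0.0016, and 1 pair exceeded 0.8. That pair was H2-Ab1 and H2-Eb1, at 0.869. H2-Aa had r of -0.226 with H2-Ab1 and -0.158 with H2-Eb1, and its closest partner was Cd83, at 0.743. The lowest value was -0.716, for H2-Aa with H2-DMb1. These are descriptions over 6 libraries that share their scaling and, in groups of 3, their pretreatment, and no test was made of them. In the same sense, the genes most alike in profile were Serpinb1a (r = 0.982) and Hnrnpa0 (0.973) for the mean of the 6 class II chain and loading genes. For Cd86 they were Tspyl1 (0.986) and Cept1 (0.958), for Cd40 Mvd (0.991) and Arf6 (0.989), and for Cd83 Met (0.995) and Mospd1 (0.994). These were the closest among 3534 genes averaging 10 FPKM or more, and 201 of those had an r over 0.9 with Cd83 against 8 with Cd86.

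The rest of the pathway was read from lists, 57 tested genes in all, of which 0 passed limma and 0 passed voom. At an unadjusted p under 0.05 in limma there were 8 of the 57, near the 14.7% of all genes tested. The groups did not overlap in 12, 8 higher and 4 lower with rmMETRNL, where over all genes tested 10.9% separated upward and 10.6% downward. Of the 57 genes 39 had a positive log2 fold change, where 4771 of all 9867 genes tested did. The median log2 fold change of the 57 was 0.04, beside -0.01 over all genes tested.

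Factors that sit on class II promoters had 6 of 11 tested genes with a positive log2 fold change and a median of 0.02. The RFX subunit genes Rfxank (1.64 ± 0.0466 and 1.60 ± 0.114 FPKM) and Rfxap (6.27 ± 0.215 and 5.85 ± 0.696 FPKM) had overlapping groups. Rfx5, which encodes the DNA-binding subunit, was at 0.641 ± 0.0657 and 0.739 ± 0.0990 FPKM and so below the level tested. The NF-Y subunit gene Nfya had 9.67 ± 0.326 and 10.01 ± 0.315 FPKM. Carm1, an arginine methyltransferase that acts as a coactivator, had the smallest p of the list, at 3.92, 3.18 and 3.37 FPKM with vehicle and 2.88, 2.57 and 2.90 FPKM with rmMETRNL, with no overlap (log2 fold change -0.24, SE 0.09, adjusted p = 0.292 in limma). The acetyltransferase genes Kat2b (2.30 ± 0.151 and 2.52 ± 0.173 FPKM) and Crebbp (3.11 ± 0.207 and 3.36 ± 0.261 FPKM) followed.

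Of the interferon-gamma pathway and the factors known to act on Ciita, 9 of 11 tested genes had a positive log2 fold change, with a median of 0.05. Ifngr1, the ligand-binding chain of the interferon-gamma receptor, stood at 12.8, 14.5 and 13.9 FPKM with vehicle and 16.3, 15.2 and 16.6 FPKM with rmMETRNL, without overlap (log2 fold change 0.21, SE 0.06, adjusted p = 0.262 in limma). Irf4, a transcription factor of the interferon regulatory family, had 1.97 ± 0.250 and 2.59 ± 0.156 FPKM and did not overlap either. Socs1, a feedback inhibitor of JAK kinases, lay below the vehicle range, at 2.36 ± 0.162 and 1.91 ± 0.268 FPKM.

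Of the genes of endolysosomal processing 7 of 10 tested had a positive log2 fold change, with a median of 0.02. Ctss, the protease that makes the last cuts in CD74, had 2320.5 ± 165 and 2364 ± 105 FPKM. Cst3, an inhibitor of cysteine proteases, had the smallest p, at 540.5, 565 and 563 FPKM with vehicle and 536, 517 and 467 FPKM with rmMETRNL, a small gap with no overlap (log2 fold change -0.14, SE 0.06, adjusted p = 0.351 in limma). The cathepsin gene Ctsl (297 ± 16.4 and 318 ± 6.00 FPKM) and Sppl2a, a protease that clears the last CD74 fragment (11.2 ± 0.604 and 12.1 ± 0.802 FPKM), overlapped. March1, which encodes the ligase that removes class II and CD86 from the surface, was below the level tested at 0.684 ± 0.0253 and 0.746 ± 0.0994 FPKM.

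Other surface molecules of co-stimulation, inhibition and adhesion had 10 of 13 tested genes with a positive log2 fold change and a median of 0.05. In 4 of them, Vsir, Cd200, Icam1 and Cd274, all rmMETRNL values lay above all vehicle values, and 0 lay wholly below, where 10.9% and 10.6% of all genes tested did so. Vsir, which encodes the inhibitory ligand VISTA, stood at 39.2, 42.5 and 39.9 FPKM with vehicle and 46.2, 48.3 and 45.7 FPKM with rmMETRNL. Its log2 difference was 0.20 (SE 0.05), for which limma gave an adjusted p of 0.230. Cd200, the ligand of an inhibitory receptor on myeloid cells, stood at 24.8, 26.6 and 24.8 FPKM with vehicle and 27.5, 32.4 and 32.0 FPKM with rmMETRNL. On the log2 scale it differed by 0.26 (SE 0.07), again with limma's adjusted p at 0.244. The adhesion molecule gene Icam1 had 25.2 ± 1.13 and 28.8 ± 1.61 FPKM. Cd274, which encodes PD-L1, had 178 ± 8.19 and 199 ± 15.7 FPKM.

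Below CD40, 5 of 10 tested genes were positive, with a median log2 fold change of 0.02. Map3k14, which encodes NIK, the kinase of the non-canonical NF-kappaB pathway, stood at 1.87, 1.72 and 1.81 FPKM with vehicle and 1.40, 1.39 and 1.31 FPKM with rmMETRNL. The log2 difference was -0.24 (SE 0.08), and limma gave an adjusted p of 0.276. Its 3 rmMETRNL values lay well below the vehicle values, from 127 to 216 reads per library. The adaptor genes Traf3 (5.22 ± 0.229 and 5.80 ± 0.267 FPKM) and Traf2 (5.21 ± 0.322 and 5.76 ± 0.149 FPKM), whose products keep NIK protein low in resting cells, lay above the vehicle range. For Traf2 the nearest libraries were at 5.58 and 5.59 FPKM. Limma gave an adjusted p of 0.379 for Traf3 and 0.397 for Traf2. A link between these genes and the Map3k14 level was not tested. Of the class II genes outside the 10, H2-Eb2 (1.03 ± 0.191 and 1.40 ± 0.125 FPKM) and H2-DMb2 were tested, and both overlapped.

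**Figure D4:**
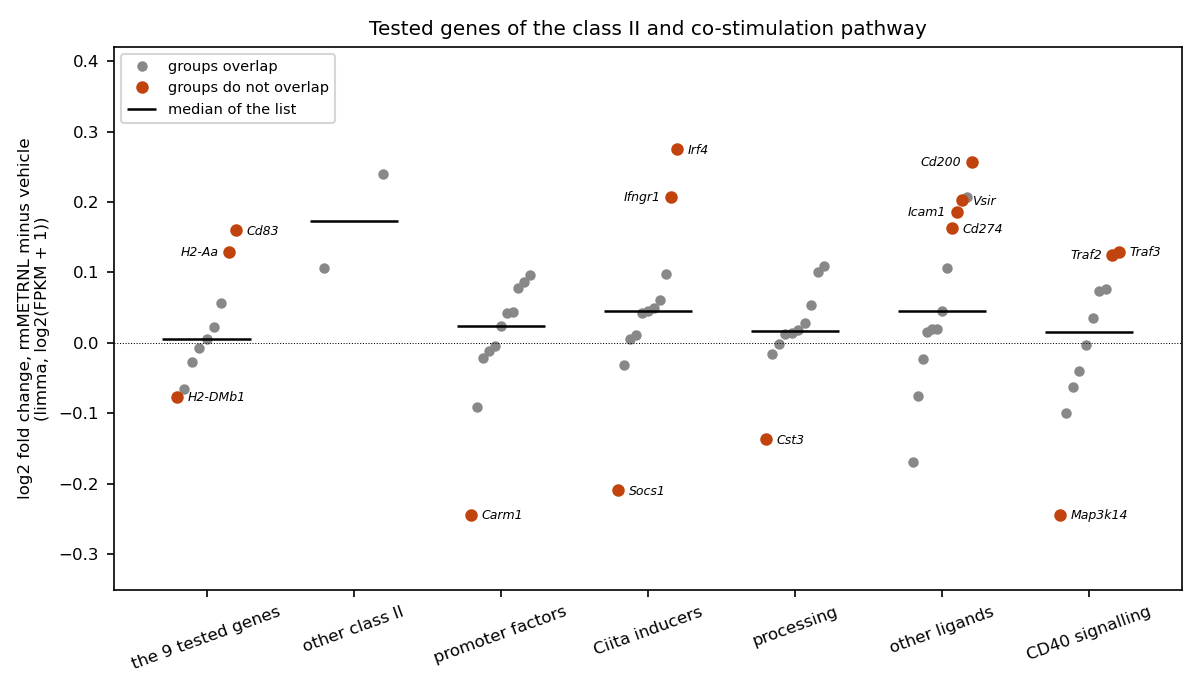
Log2 fold change (limma, rmMETRNL minus vehicle) of each tested gene, by list, with a line at the list's median, and in orange, with names, the genes whose groups do not overlap. No gene shown passed the test over all genes, and the medians of the lists with 10 or more tested genes lie between 0.02 and 0.05.

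In bulk RNA, fewer cells of a type and less RNA per cell cannot be told apart, and dendritic cells and B cells carry class II too. Of 12 dendritic cell markers 5 averaged 1 FPKM or more, led by Cd24a (69.7 ± 8.25 and 70.2 ± 4.61 FPKM) and Ccr7 (28.3 ± 1.39 and 27.6 ± 1.42 FPKM), which other cells also express. The list summed to 119 to 139 FPKM in vehicle and 129 to 140.2 FPKM in rmMETRNL libraries, and no marker was at 0 in every library. The defining genes Flt3 (0.663 ± 0.0400 and 0.802 ± 0.0554 FPKM) and Zbtb46 (0.713 ± 0.106 and 0.814 ± 0.0684 FPKM) were low. In the rmMETRNL libraries Flt3 and Ly75 (17.1 ± 1.00 and 20.2 ± 1.51 FPKM, adjusted p = 0.273 in limma) lay above the vehicle range and Xcr1 (0.116 ± 0.0160 and 0.0727 ± 0.0279 FPKM, from only 3 to 9 reads) below it, and the other 9 overlapped. Of the 5 tested markers 1 did not overlap (Ly75), where 21.5% of all genes tested did not. Of 8 B cell markers 2 reached a mean of 1 FPKM, Cd79a (2.49 ± 0.425 and 2.86 ± 0.274 FPKM) and Cd79b (2.01 ± 0.360 and 2.41 ± 0.343 FPKM). That list summed to 6.01 to 6.81 FPKM with vehicle and 6.93 to 7.22 FPKM with rmMETRNL, so the sums did not overlap, and no marker was at 0 in every library. The part of these cells in the class II levels was not tested. Sums of T and NK cell markers (1.70 to 2.75 and 1.79 to 3.98 FPKM) overlapped between the groups, led by Trac (1.02 ± 0.651 and 2.01 ± 1.03 FPKM) and Cd4 (0.333 ± 0.0683 and 0.297 ± 0.0339 FPKM). So did those of fibroblast and mesothelial markers (10.6 to 11.4 and 10.5 to 11.0 FPKM), led by Dcn (4.27 ± 0.259 and 4.30 ± 0.115 FPKM) and Krt19 (2.19 ± 0.184 and 2.08 ± 0.350 FPKM). Those of neutrophil markers (105 to 115 and 117 to 125 FPKM) did not. Of these 8 markers only S100a8 and S100a9 averaged 1 FPKM or more. The most abundant of them, S100a8, overlapped (83.7 ± 4.59 and 86.1 ± 0.564 FPKM), S100a9 did not (24.4 ± 0.781 and 34.8 ± 3.56 FPKM, adjusted p = 0.151 in limma), and Elane was at 0.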

How the data were processed

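What the authors deposited is FPKM per gene and library, in 1 table that also gives gene names, positions and lengths. GRCm38 and mm10 are the builds in the submitters' processing notes. Aligner, counter and annotation release: not given in the sources used here. Reads were recovered by multiplying FPKM by gene length and dividing by the smallest step of the library, and 100% of the results were whole (tolerance 0.05 reads). Symbols that had become dates (March1) were resolved through the gene identifier. Limma 3.58.1 in R 4.3.3, with a trend of variance on level, tested genes averaging 1 FPKM or more after log2(FPKM + 1). Tests were two-sided, adjusted by the Benjamini-Hochberg method, with a threshold of 0.05. Fold changes are 2 to the power of the log2 difference, which understates low genes. Alternatives were a pseudocount of 0.1, no filter, a minimum of 5 FPKM, 3 scalings, no trend, a replicate block, voom, and leaving out each library. The fit was also run on simulated reads with known fold changes, as a check of the code and not of the results in these libraries.

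The genes and lists were chosen with earlier results of these data known. Named are the 10 genes, up to 3 tested genes of smallest p per list, the 2 most abundant genes of marker lists (the retina list is given by its sum), and the 2 genes most alike in profile. The X and Y letters and their spacing were set after the promoters were seen. Cd80, Cd274, Ctss, Elane, Flt3, Zbtb46, Ly75, Xcr1, Adgre1, Csf1r, Mrc1, Cd68, Mertk, Cd163, March1, H2-Oa, H2-Ob, H2-Ea-ps and the RFX and NF-Y genes were named after their values were seen. Shared 31-base words and exon overlaps come from GENCODE M21. Some single genes of the lists are not reported here.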

Additional observations from a re-analysis of the deposited data

How the results depend on the processing

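None of the 15 alternatives called any of the 9 tested genes (0 in each). Over all genes, limma called 0 in the fit reported and in each of the 6 fits without 1 library, 5 with no filter, 2 after rescaling to TPM, and voom called 61. The cause of these differences was not tested. H2-Aa, H2-DMb1, Cd86 and Cd83 kept their direction under every alternative. Of the others, H2-Eb1 changed sign with quantile normalization (-0.0016) and in voom (-0.0012), and Cd40 with quantile normalization (0.0025) and with TPM (0.011). Leaving out 1 library moved the log2 fold change of H2-Ab1 between -0.021 and 0.074, of H2-Eb1 between -0.053 and 0.081, of H2-DMa between -0.12 and 0.028, of Cd74 between -0.021 and 0.10, and of Cd40 between -0.087 and 0.11. The median of Cd86, Cd40 and Cd83 ran from -0.058 to 0.11 in those fits, and that of the 6 class II genes from -0.032 to 0.064. Same-numbered libraries did not deviate together (correlations of -0.0212, 0.0074 and -0.0454, and each vehicle library was closest to another number), and with the replicate number as a block limma called 0 genes and 0 of the 9. Depth limits Ciita (38 to 62 reads) and the H2-M genes (124 to 292 reads).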
